A study of Homo sapiens with 4 samples.

Results

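The CDK inhibitors are the small proteins that bind cyclin-dependent kinases and hold back the cell cycle. Their genes were read in U937-AE cells, which express AML1/ETO, against U937-Mt control cells. The set holds 8 genes, chosen by protein family with earlier results of these data known. They are CDKN1A, CDKN1B and CDKN1C (the CIP/KIP family), CDKN2A, CDKN2B, CDKN2C and CDKN2D (the INK4 family), and CDKN3, a phosphatase that acts on CDKs. All probe sets (groups of short array probes for 1 transcript) annotated to 1 of these genes alone were taken, which gave 16 probe sets of 7 genes, out of 54613 probe sets other than controls and 41097 with 1 gene symbol. CDKN2C was not analyzed here.

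U937 is a human leukemia line of the monocytic lineage. AML1/ETO is the fusion of the transcription factor AML1 with the corepressor ETO that arises from a chromosomal translocation in acute myeloid leukemia. U937-AE is a clone with HA-tagged AML1/ETO under the zinc-responsive mouse metallothionein promoter, whereas U937-Mt is a bulk population that carries the empty pSGMtNeo vector, so the choice of a clone and the fusion protein cannot be told apart. Both received 100 µM ZnSO4 for 8 h, so zinc is common to both. RNA of 3 extractions per line went into 1 labeled pool, which was hybridized to the expression array HG-U133 Plus 2.0, so there are 2 arrays (copies) per line and 4 in all. The copies measure hybridization error only, each line is 1 sample, and the lines were therefore compared with no p-value.

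As background, a CDK needs a cyclin to be active. CDK4 and CDK6 with D-type cyclins, and then CDK2 with E-type and A-type cyclins, phosphorylate the retinoblastoma protein, which releases E2F factors that switch on the genes of DNA replication. INK4 proteins bind CDK4 and CDK6 alone, whereas CIP/KIP proteins bind complexes of CDKs with cyclins, CDK2 complexes above all. In myeloid cells the inhibitors are known from the exit from the cell cycle that goes with terminal differentiation.

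3 of the 16 probe sets were higher in U937-AE and none was lower. They belong to CDKN1A (p21), CDKN1B (p27) and CDKN2B (p15). In a pool of RNA, more cells with a transcript and more transcript per cell cannot be told apart. Each U937-AE array was set against each U937-Mt array, and a probe set was called where all of these 4 comparisons exceeded 1.5-fold in the same direction. Signals are linear intensities in arbitrary units, and each was first raised to a floor, the median signal of its array (119.5 and 129.7 on the U937-AE arrays, 146.8 and 153.6 on the U937-Mt arrays). Because the floors differ, any probe set that is nowhere above its floor takes the value -0.27 as log2 difference. Of all 54613 probe sets 1.29% were called higher and 2.74% lower. Among 28882 measured probe sets, whose mean log2 signal reached the mean floor of a pool in U937-AE, U937-Mt or both, the shares were 2.45% and 5.18%.

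The proximal promoters of the 3 genes called higher are shown, as they are among the stretches where regulators are known to act. Sites farther from the start were not analyzed here. These promoters are also set beside the letters bound by AML1 and by E-proteins, which are partners of AML1/ETO. Each run is the 250 bases before the annotated start in RefSeq, GRCh38.p14, written 5′ to 3′ on the strand of the gene. Capitals mark a GC box (GGGCGG, or CCGCCC for the other strand, the letters bound by SP1) or an E-box of the form CAGCTG. The windows are chr6:36678464-36678713 on the plus strand for CDKN1A, chr12:12717118-12717367 on the plus strand for CDKN1B and chr9:22009306-22009555 on the minus strand for CDKN2B.
CDKN1A: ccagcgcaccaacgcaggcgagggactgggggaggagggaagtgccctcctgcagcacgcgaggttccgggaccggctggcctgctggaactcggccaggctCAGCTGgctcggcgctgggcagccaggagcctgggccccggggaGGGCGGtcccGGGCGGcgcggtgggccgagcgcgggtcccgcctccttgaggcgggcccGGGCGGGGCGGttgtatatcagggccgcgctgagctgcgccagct
CDKN1B: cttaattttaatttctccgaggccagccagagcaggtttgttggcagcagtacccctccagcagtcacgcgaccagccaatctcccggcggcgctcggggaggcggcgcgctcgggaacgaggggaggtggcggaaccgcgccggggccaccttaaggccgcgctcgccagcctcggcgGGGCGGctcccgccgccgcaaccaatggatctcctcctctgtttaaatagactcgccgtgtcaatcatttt
CDKN2B: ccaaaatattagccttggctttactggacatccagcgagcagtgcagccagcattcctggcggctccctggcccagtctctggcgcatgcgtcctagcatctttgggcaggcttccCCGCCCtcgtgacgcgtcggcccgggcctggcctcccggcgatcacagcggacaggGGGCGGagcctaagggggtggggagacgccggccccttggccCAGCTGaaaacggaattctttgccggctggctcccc

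In these windows the CDKN1A promoter held 4 GC boxes, a pair of which share a base, and 1 E-box. The CDKN2B promoter held 2 GC boxes and 1 E-box, and that of CDKN1B 1 GC box and no E-box. The AML1 letters TGTGGT or TGCGGT, read on both strands, were in none of the 3 windows. Of 35116 promoter windows of the same length in the table, 42.6% held a GC box, 14.0% the E-box and 16.3% the AML1 letters. The GC content was 76.4% for CDKN1A, 64.4% for CDKN1B and 66.4% for CDKN2B. Of the other members, CDKN2D had 2 GC boxes and CDKN3 none, and CDKN2A, with windows at 2 starts, had 1 GC box at 1 of them and none at the other. None of these held the E-box or the AML1 letters. The matches are letters in a window and no measure of binding. By chromatin immunoprecipitation and PCR, the paper reports AML1/ETO at the promoters of CDKN1A and CDKN1B in U937-AE. It also reports more of the E-protein HEB there than in U937-Mt. The paper's forward PCR primer for CDKN1A lies in the window shown, but neither of its primers for CDKN1B does. The stretches measured and searched thus differ, and the lack of the AML1 letters in the windows does not speak to binding at these promoters.

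CDKN1A encodes p21, the inhibitor of CDK2 complexes that p53 is known to induce. Its 1 probe set, 202284_s_at, had signals of 556.1 and 601.3 in U937-AE, with 49.2 and 154.3 in U937-Mt. Both U937-AE values lie well above the U937-Mt values, but the U937-Mt copies were 3.14-fold apart and 1 of them was below the floor. CDKN1A was 3.84-fold higher in U937-AE with the floor (3.60 to 4.10 over the 4 comparisons) and 6.64-fold higher without it (3.60 to 12.2). It counts as measured through U937-AE alone, so once it had passed it could only lie on the side of U937-AE. With the floor at the 75th percentile of each array the log2 difference was 0.22 and CDKN1A was not called.

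CDKN1B encodes p27, which binds CDK2 complexes in resting cells. The probe set 209112_at had signals of 5819.4 and 5900.9 in U937-AE, with 3533.1 and 3444.5 in U937-Mt. This was a bright probe set, and the copies of a pool lay close together, 1.01-fold apart in U937-AE and 1.03-fold in U937-Mt. CDKN1B was 1.68-fold higher (1.65 to 1.71 over the 4 comparisons). The floor touched none of its values, so its difference is the same with and without one, and it was called higher in 15 of 18 alternative settings. The other 3 all ask for 2-fold, which its difference does not reach.

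CDKN1C encodes p57, an inhibitor whose gene is imprinted. Of its 5 probe sets, 4 were at the floor on all 4 arrays. The remaining one, 213348_at, had signals of 156.9 and 195.3 in U937-AE, with 282.1 and 250.3 in U937-Mt. All 4 values were above the floors but close to them. The fold was 1.52 in the direction of U937-Mt (1.28 to 1.80), which is not a call. Without the second U937-AE array the log2 difference was -0.76 and CDKN1C was called lower.

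Below the floor, copies of a pool say little. The CDKN1C probe set 219533_at had signals of 3.9 and 54.1 in U937-AE, with 4.8 and 46.7 in U937-Mt, so its copies were 13.9-fold apart in U937-AE and 9.73-fold in U937-Mt. The other 3 sets of CDKN1C stayed between 11.1 and 42.0 on all arrays. No level of p57 mRNA can be read from these 4 probe sets.

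**Figure D1:**
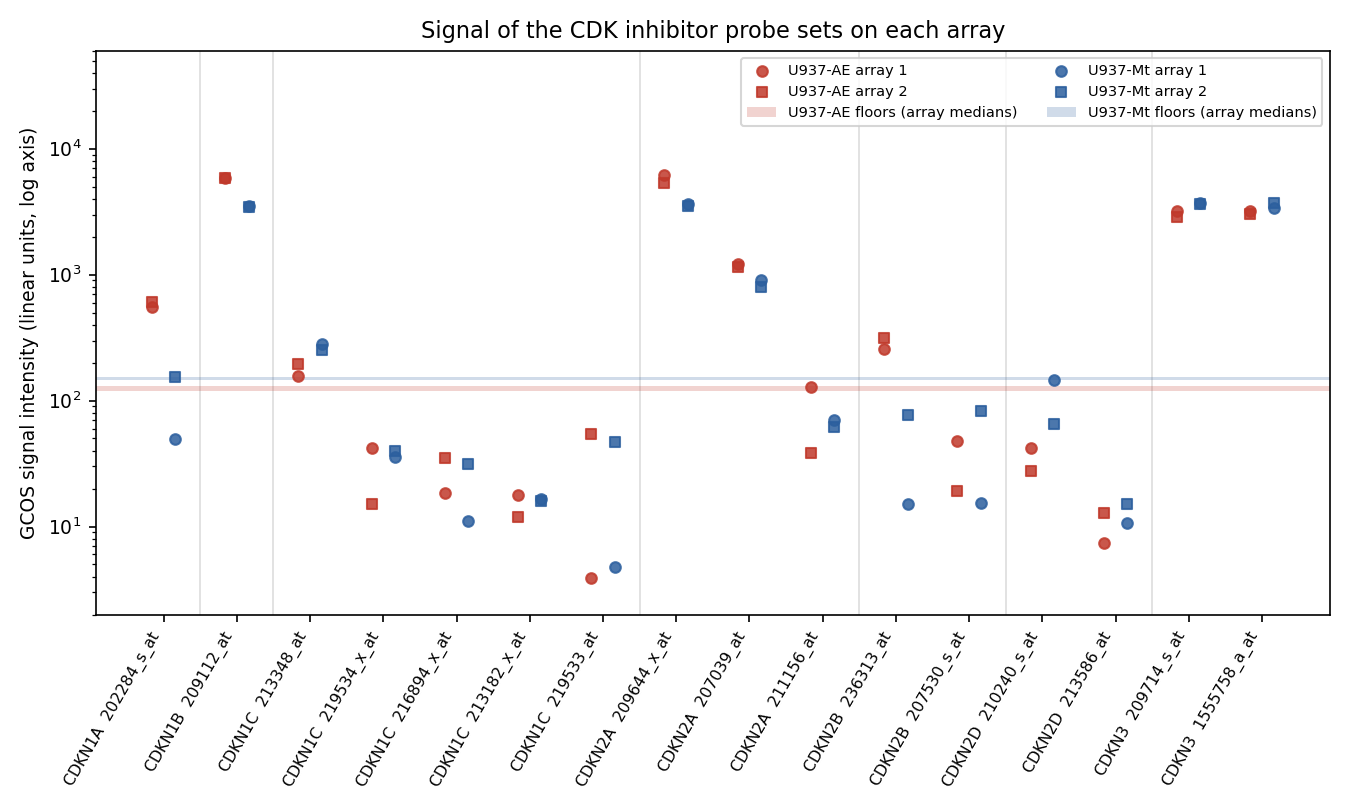
Signal intensity (linear units on a log axis) of the 16 CDK inhibitor probe sets on the 2 U937-AE arrays (red, left of each pair) and the 2 U937-Mt arrays (blue, right); circles are array 1, squares array 2, and the bands span the floors of each line's arrays. CDKN1B, CDKN2A and CDKN3 have the brightest probe sets, while 7 of the 16 probe sets lie below the floors on all 4 arrays.

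The INK4 genes CDKN2A and CDKN2B lie next to each other. CDKN2B encodes p15, an inhibitor of CDK4 and CDK6 that TGF-beta is known to induce in epithelial cells. Its probe set 236313_at had signals of 259.0 and 316.3 in U937-AE, with 15.2 and 77.3 in U937-Mt. Both U937-Mt arrays were below the floor, and there the copies were 5.09-fold apart. CDKN2B was thus higher by at least 1.91-fold (1.69 to 2.15), and 8.35-fold higher without a floor (3.35 to 20.8), a value that rests on the dim U937-Mt readings.

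The call of CDKN2B rests on this probe set alone. The other, 207530_s_at, had signals of 47.5 and 19.1 in U937-AE, with 15.4 and 82.8 in U937-Mt, below the floor on every array. Like CDKN1A, CDKN2B counts as measured through U937-AE alone. With the floor at the 75th percentile CDKN2B was not called. Each of its values lay below that floor, so its log2 difference of -0.10 is only the difference of the floors.

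CDKN2A encodes p16, an INK4 inhibitor, and from another start p14ARF, which holds back the ubiquitin ligase MDM2. The probe set 209644_x_at had signals of 6154.7 and 5364.3 in U937-AE, with 3642.2 and 3483.2 in U937-Mt. The fold was 1.61 (1.47 to 1.77), so 1 of the 4 comparisons kept it from a call. The suffix _x_at marks probes that can also bind other transcripts, and which product each probe set reads was not analyzed here. It was called higher in 8 of 18 alternative settings, among them those that left out the second U937-AE array (log2 difference 0.79) or the first U937-Mt array (0.72).

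A second CDKN2A probe set, 207039_at, had signals of 1226.3 and 1144.8 in U937-AE, with 904.8 and 793.5 in U937-Mt. The fold was 1.40 in the direction of U937-AE (1.27 to 1.55), and the probe set was not called. The third, 211156_at, had signals of 128.5 and 38.5 in U937-AE, with 70.3 and 61.5 in U937-Mt, where its values overlapped and its means were below the floors. CDKN2D, which encodes p19, had 2 probe sets, and both were below the floor on all arrays. Of these, 210240_s_at had signals of 42.1 and 27.6 in U937-AE, with 146.4 and 64.8 in U937-Mt, and it was called lower only with no floor (log2 difference -1.51) or with a floor at the 25th percentile (-1.26).

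CDKN3 encodes a dual-specificity phosphatase that removes the activating phosphate of CDKs and peaks in dividing cells. Its probe set 209714_s_at had signals of 3176.3 and 2846.6 in U937-AE, with 3736.4 and 3629.3 in U937-Mt. The second, 1555758_a_at, had signals of 3211.5 and 3008.7 in U937-AE, with 3382.4 and 3708.9 in U937-Mt. The folds in the direction of U937-Mt were small, 1.22 (1.14 to 1.31) and 1.14 (1.05 to 1.23), and neither probe set was called. When arrays were scaled to the spike-ins, both differences had the other sign (0.05 and 0.16).

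**Figure D2:**
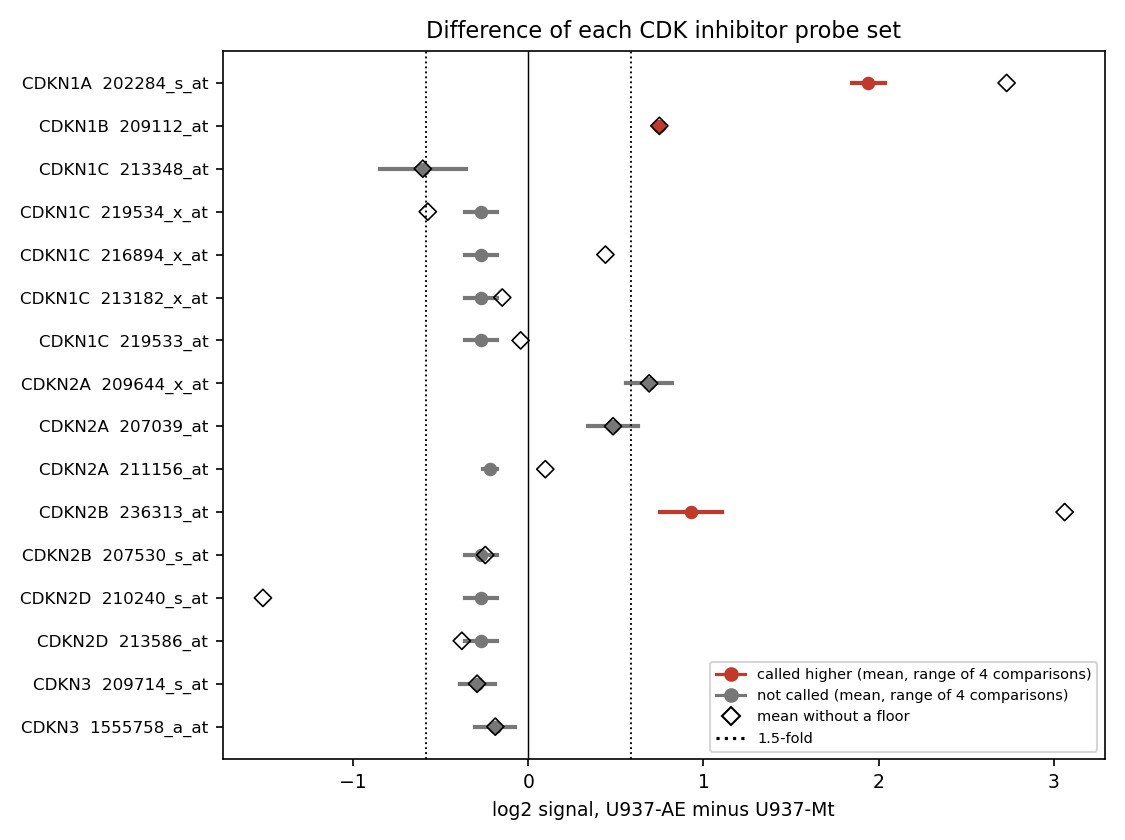
Difference in log2 signal (U937-AE minus U937-Mt) of each CDK inhibitor probe set, with the mean as a dot and the range of the 4 comparisons of arrays as a bar (red, called higher; gray, not called); open diamonds are means without a floor and dotted lines mark 1.5-fold. CDKN1A, CDKN1B and CDKN2B lie wholly beyond 1.5-fold, the diamonds of CDKN1A and CDKN2B lie farther out at 6.64-fold and 8.35-fold, and the 7 probe sets below the floors on all arrays sit at -0.27.

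By gene, with the brightest probe set standing for each, 3 of 7 members were higher and none was lower, where 1.7% of 19775 genes were higher and 4.0% lower. The members were chosen with earlier results of these data known, so these shares are no test of the set. CDKN1A and CDKN2B also count as measured through U937-AE alone. Over all 16 probe sets the median log2 difference was -0.27, the same as over all 54613 probe sets, and is the value of any probe set below its floors. The CIP/KIP genes were not all on 1 side, since CDKN1A and CDKN1B were higher while CDKN1C was on the side of U937-Mt without a call. Of the INK4 genes, the measured probe sets of CDKN2A and CDKN2B had the same sign, with the call for CDKN2B alone.

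Some facts of the arrays bear on these values. RUNX1T1, the gene of ETO, checks the labels: its probe set 216831_s_at had signals of 1361.5 and 1299.0 in U937-AE, with 8.6 and 7.6 in U937-Mt. Its other 6 probe sets were not called; 5 were not measured, and 216832_at had signals of 181.9 and 95.5 in U937-AE, with 276.6 and 121.2 in U937-Mt. The deposited arrays have the same trimmed mean signal, and on that scale the hybridization spike-ins were dimmer in U937-AE by 0.34 on the log2 scale. Scaling to the spike-ins therefore moves every difference toward U937-AE, the median of the measured probe sets to 0.25 in place of -0.09. Among all calls 67.9% were lower, 52.4% after quantile normalization, 24.8% with the arrays shifted to the same median and 15.1% with spike-in scaling. The directions of CDKN1A, CDKN1B and CDKN2B were the same, and they were called, under all 3 of these scalings.

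Markers of the monocytic and myeloid lineage differed between the lines as well. Of 8 with a probe set, 7 were measured, 4 were lower in U937-AE (MPO, SPI1, ITGAM and LYZ) and PTPRC was higher; LYZ was not called when arrays were shifted to the same median or scaled to the spike-ins, nor PTPRC after quantile normalization. Their summed signal was 15314.5 and 14288.1 in U937-AE, with 28799.4 and 27484.5 in U937-Mt. MPO made up most of this difference, at 1898.0 and 1557.9 in U937-AE, with 16116.7 and 14590.8 in U937-Mt, so the sum does not speak for the other markers. Of their probe sets, 1 of 2 was called for ITGAM and for LYZ, 2 of 2 for MPO and 3 of 5 for PTPRC. CD14, a monocyte marker, was below the floor on all arrays. None of 4 T cell and none of 4 epithelial markers was measured, with summed signals of 171.2 to 299.4 and 139.7 to 160.0 in U937-AE, against 200.5 to 298.3 and 291.9 to 421.1 in U937-Mt. Of the B cell markers 3 of 3 were measured, of the erythroid markers 1 of 2 and of the fibroblast markers 3 of 4, and none was called. Their summed signals were 1369.2 to 1674.8, 323.4 to 408.8 and 570.3 to 823.9 in U937-AE, against 1355.9 to 1452.0, 332.8 to 369.2 and 579.2 to 795.7 in U937-Mt. Leaving out 1 array brought calls for CSF1R (lower, log2 difference -0.92 with U937-AE array 1 dropped and -1.07 with U937-Mt array 1 dropped), CD79B (higher, 0.80 with U937-AE array 2 dropped and 0.82 with U937-Mt array 1 dropped) and CD8A (higher, 0.68 with U937-AE array 2 dropped). The part of the state of the cells in the differences of the CDK inhibitors was not tested.

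The partners of the inhibitors come next. Of 12934 measured genes, by their brightest probe sets, 336 were higher and 791 lower. Few or no calls are thus usual in lists as short as this one and those below. Of 13 genes for the CDKs and cyclins that the inhibitors bind, all measured, 2 were higher, 1 was lower and the other 10 had no call (median log2 difference 0.15, against -0.10 over all measured genes). CCND1, cyclin D1, had signals of 607.2 and 446.8 in U937-AE, with 155.6 and 263.6 in U937-Mt, and was 2.57-fold higher (1.69 to 3.90); its other probe set was not called. CCNE2, cyclin E2, had signals of 3855.8 and 3689.8 in U937-AE, with 2308.6 and 2297.0 in U937-Mt, and was 1.64-fold higher (1.598 to 1.68). CCNA1, a cyclin of germ cells and myeloid leukemia, had signals of 132.1 and 261.8 in U937-AE, with 766.9 and 784.8 in U937-Mt, and was 4.17-fold lower (2.93 to 5.94).

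Thus cyclins of the D, E and A types each had a called gene, but not in 1 direction. The kinases were not called by their brightest probe sets: CDK2 was 1.39-fold, CDK6 1.33-fold, CDK1 1.15-fold and CDK4 1.11-fold on the side of U937-AE, with 1 of 7 CDK6 probe sets called higher. CCND3 had signals of 4245.5 and 4440.2 in U937-AE, with 6283.9 and 6356.3 in U937-Mt, 1.46-fold on the side of U937-Mt (1.41 to 1.497), and was not called.

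The targets of the CDKs are the RB proteins and, through them, the E2F factors. By their brightest probe sets, 2 of 13 genes were higher, 1 was lower and the other 10 had no call (median log2 difference 0.33). E2F7, a repressive E2F, had signals of 1898.9 and 2056.4 in U937-AE, with 739.9 and 797.3 in U937-Mt, and was 2.57-fold higher (2.38 to 2.78). Its other probe set was not called. E2F6, another repressive E2F, had signals of 2746.1 and 2486.7 in U937-AE, with 1421.1 and 1343.3 in U937-Mt, and was 1.89-fold higher. E2F2, an activating E2F, had signals of 814.4 and 719.3 in U937-AE, with 1446.9 and 1523.2 in U937-Mt, and was 1.94-fold lower. Of its 3 probe sets only this one was called, but not with arrays shifted to the same median or scaled to the spike-ins. E2F1, also an activating E2F, was not called by its brightest probe set, but its other one had signals of 935.9 and 509.2 in U937-AE, with 289.0 and 310.1 in U937-Mt, and was 2.31-fold higher (1.64 to 3.24).

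RB1 itself was close to the threshold. It had signals of 6159.1 and 5834.6 in U937-AE, with 3893.8 and 3694.6 in U937-Mt, 1.58-fold (1.498 to 1.67), and was not called. E2F5, at 1.73-fold (1.41 to 2.11), was not called either. Both depended on single arrays: with U937-AE array 2 dropped RB1 (log2 difference 0.70) and E2F5 (0.86) were called higher, with U937-Mt array 1 dropped RB1 was (0.70), and with U937-Mt array 2 dropped E2F5 was (1.00).

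None of 16 markers of dividing cells was called by its brightest probe set, and their median log2 difference was 0.03. The other probe set of RRM2, a ribonucleotide reductase subunit needed for replication, was 1.59-fold higher, at signals of 14586.6 and 14505.4 in U937-AE, with 9563.0 and 8795.7 in U937-Mt. MKI67 had signals of 3396.7 and 3707.3 in U937-AE, with 3142.2 and 3206.5 in U937-Mt, 1.12-fold on the side of U937-AE, and PCNA, the sliding clamp of DNA polymerase that p21 also binds, had signals of 13551.5 and 13409.6 in U937-AE, with 14106.7 and 12791.8 in U937-Mt. Whether the lines divided at different rates was not measured here.

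**Figure D3:**
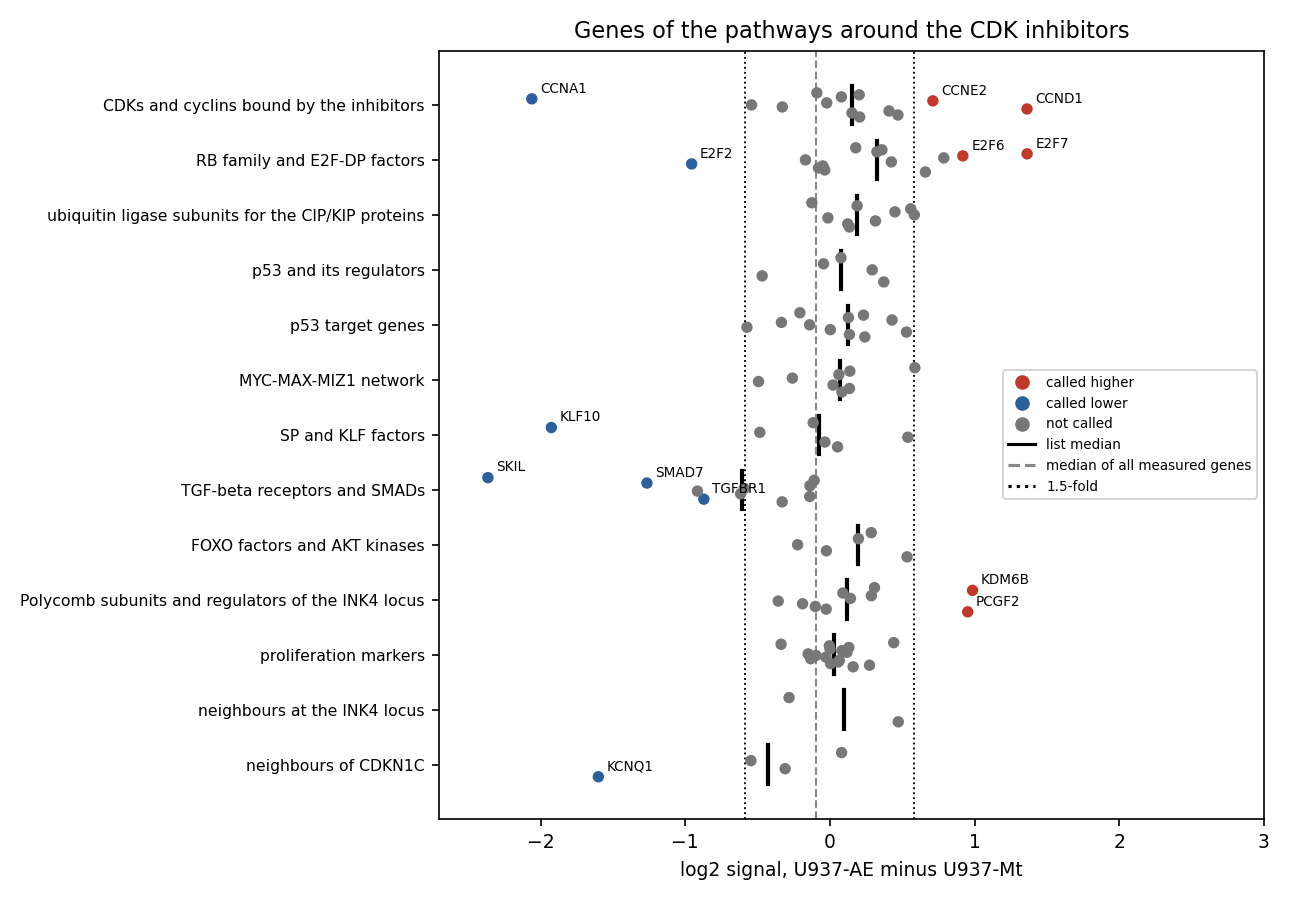
Difference in log2 signal (U937-AE minus U937-Mt) of each measured gene, by its brightest probe set, of 13 lists around the CDK inhibitors (red, called higher; blue, called lower; gray, not called), with list medians as strokes, the median of all measured genes (-0.10) as a dashed line and 1.5-fold as dotted lines. The TGF-beta list lies farthest left with a median of -0.60, and the p53 targets and the proliferation markers hold no called gene.

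Upstream of the inhibitors, p21, p27 and p57 are removed by the ubiquitin ligases that carry SKP2 or DTL. None of 9 subunit genes was called (median log2 difference 0.19), and SKP2 had signals of 4297.6 and 4832.0 in U937-AE, with 4213.9 and 4153.4 in U937-Mt. With arrays scaled to the spike-ins 4 of the 9 were higher, and without the first U937-Mt array RBX1 (log2 difference 0.84) and CUL4B (0.68), a RING and a cullin subunit, were. mRNA signals give no protein levels, so the removal of p27 was not measured.

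CDKN1A is a classical target of p53. Of 14 other p53 target genes with a probe set, 11 were measured and none was called by its brightest probe set (median log2 difference 0.13). Of 4 probe sets of TNFRSF10B, a TRAIL receptor, 1 was 2.04-fold lower, at signals of 183.0 and 198.3 in U937-AE, with 341.9 and 440.8 in U937-Mt. FAS, a death receptor, had signals of 652.8 and 653.2 in U937-AE, with 407.1 and 502.9 in U937-Mt (1.44-fold, 1.30 to 1.605), and it was called higher with U937-Mt array 2 dropped (log2 difference 0.68), as was ZMAT3 without the first (0.78). RRM2B, a ribonucleotide reductase subunit, stood on the other side, 540.5 and 464.6 in U937-AE, with 717.5 and 774.9 in U937-Mt, and was called lower without the first U937-AE array (-0.68).

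No regulator of p53 among the 5 that were measured was called by its brightest probe set (median log2 difference 0.08). Of 6 probe sets of ATM, a kinase of the DNA damage response, 1 was 1.82-fold lower, at signals of 106.5 and 140.3 in U937-AE, with 211.9 and 263.4 in U937-Mt. MDM2, at once a p53 target and the ligase that removes p53, had signals of 1467.0 and 1208.5 in U937-AE, with 1029.7 and 1026.9 in U937-Mt, 1.29-fold on the side of U937-AE (1.17 to 1.43).

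MYC with MAX and MIZ1 (encoded by ZBTB17) is known to repress CDKN1A and CDKN2B. None of 8 measured genes of this network was called by its brightest probe set, with a median of 0.07. MYC had signals of 17356.3 and 15916.9 in U937-AE, with 16004.6 and 15382.6 in U937-Mt, and ZBTB17 had signals of 770.1 and 845.1 in U937-AE, with 785.1 and 804.1 in U937-Mt. MGA, a MAX partner, was 1.503-fold (1.32 to 1.71) on the side of U937-AE and was called higher with U937-Mt array 2 dropped (log2 difference 0.76). MXD1, another MAX partner, had 1 of 3 probe sets 2.31-fold lower, at signals of 192.2 and 140.9 in U937-AE, with 409.5 and 351.7 in U937-Mt, and its brightest was called lower with U937-AE array 2 dropped (-0.65).

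Factors that bind GC boxes come from the SP and KLF families. By their brightest probe sets, 1 of 6 measured SP and KLF genes was lower and the other 5 had no call (median -0.07). SP3, which like SP1 binds GC boxes, had 1 of 5 probe sets 1.58-fold lower, at signals of 146.8 and 148.6 in U937-AE, with 235.8 and 232.4 in U937-Mt. SP1 had signals of 2425.6 and 2323.7 in U937-AE, with 2501.8 and 2093.2 in U937-Mt. KLF10, an early response gene of TGF-beta, had signals of 409.7 and 284.1 in U937-AE, with 1308.9 and 1283.6 in U937-Mt, and was 3.80-fold lower (3.13 to 4.61). KLF4 was called higher with U937-Mt array 2 dropped (log2 difference 0.67).

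TGF-beta signals through its receptors to SMAD proteins, which act on CDKN2B and CDKN1A. Of 10 genes of this pathway, 3 were lower, none was higher and the other 7 had no call (median log2 difference -0.60). SKIL, a corepressor of SMADs, had signals of 190.7 and 151.0 in U937-AE, with 900.3 and 847.6 in U937-Mt, and was 5.15-fold lower (4.44 to 5.96), although 4 other probe sets of it were not called. SMAD7, an inhibitory SMAD that the pathway induces, had signals of 195.4 and 153.8 in U937-AE, with 416.6 and 416.5 in U937-Mt. It was 2.40-fold lower, but with the floor at the 75th percentile SMAD7 was not called.

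Both are known as brakes of the pathway, and its part in the difference of CDKN2B was not tested. TGFBR1, the type I receptor, had signals of 2632.7 and 2535.5 in U937-AE, with 4942.4 and 4519.7 in U937-Mt, and was 1.83-fold lower, but it was not called with arrays shifted to the same median or scaled to the spike-ins. SMAD3, at 1.89-fold (1.41 to 2.53), SMAD2 at 1.53-fold and SMAD4 at 1.51-fold were on the same side without a call. All 3 were called lower without the first U937-AE array (log2 differences -0.99, -0.68 and -0.62 for SMAD3, SMAD2 and SMAD4), and SMAD3 also without the second U937-Mt array (-1.26).

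FOXO factors are known to induce CDKN1B, and AKT kinases to restrain them. None of 5 measured genes was called (median log2 difference 0.20). FOXO3 had signals of 5316.4 and 4989.0 in U937-AE, with 5255.2 and 5219.3 in U937-Mt. FOXO1, with both U937-Mt arrays below the floor, had signals of 187.1 and 252.5 in U937-AE, with 141.9 and 139.4 in U937-Mt, at least 1.45-fold (1.22 to 1.72), and was called higher without the first U937-AE array (log2 difference 0.75).

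Polycomb complexes are known to silence the INK4 genes, and the demethylase KDM6B to oppose them. Of 10 measured genes 2 were higher, none was lower and the other 8 had no call (median 0.12). KDM6B had signals of 1375.8 and 1439.9 in U937-AE, with 821.1 and 614.8 in U937-Mt, and was 1.98-fold higher (1.68 to 2.34), with 1 of its 5 probe sets called. PCGF2, a Polycomb subunit, had signals of 854.0 and 775.7 in U937-AE, with 373.6 and 473.1 in U937-Mt, and was 1.94-fold higher (1.64 to 2.29), with 2 of its 4 probe sets called. A Polycomb subunit and the enzyme that counters Polycomb were thus higher together, while EZH2, the methyltransferase, was 1.10-fold apart and not called.

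Around the INK4 genes, the antisense transcripts were dim. CDKN2B-AS1 stayed between 3.1 and 5.9 on all arrays, and CDKN2A-AS1 had signals of 10.3 and 11.5 in U937-AE, with 66.2 and 29.7 in U937-Mt, all below the floor. MTAP, a methionine salvage enzyme that neighbors CDKN2A, had 6 probe sets. The brightest had signals of 1368.0 and 1376.2 in U937-AE, with 933.6 and 1047.1 in U937-Mt, 1.39-fold and not called, and 204956_at had signals of 484.4 and 466.9 in U937-AE, with 218.3 and 292.4 in U937-Mt, 1.88-fold higher (1.597 to 2.22). On the other side of CDKN2B, DMRTA1 was below the floor on all arrays. Of 5 genes listed at this locus 2 were measured, with a median log2 difference of 0.10, and none was called by its brightest probe set.

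The neighbors of the other members were mostly not called. KCNQ1, a potassium channel gene next to CDKN1C in the same imprinted region, had signals of 13 and 10.5 in U937-AE, with 370.2 and 385.2 in U937-Mt, and was at least 3.03-fold lower (2.85 to 3.22); with the floor at the 75th percentile it was not called. Its other probe set was not called. By brightest probe sets KCNQ1 was the 1 call among 4 measured genes around CDKN1C (median log2 difference -0.43). PHLDA2, an imprinted gene of the same region, had 1 of 3 probe sets at least 3.40-fold lower, at signals of 27.0 and 5.0 in U937-AE, with 441.0 and 406.3 in U937-Mt. SLC67A1, on the other side of CDKN1C, was 1.31-fold on the side of U937-Mt and not called. SRSF3, a splicing factor gene beside CDKN1A, was 1.14-fold on the side of U937-Mt (1.00 to 1.31). GPR19 and APOLD1 beside CDKN1B, KRI1 and AP1M2 beside CDKN2D and CNIH1 beside CDKN3 were not called. The genes on the other sides of CDKN1A and CDKN3 were not analyzed here.

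**Figure D4:**
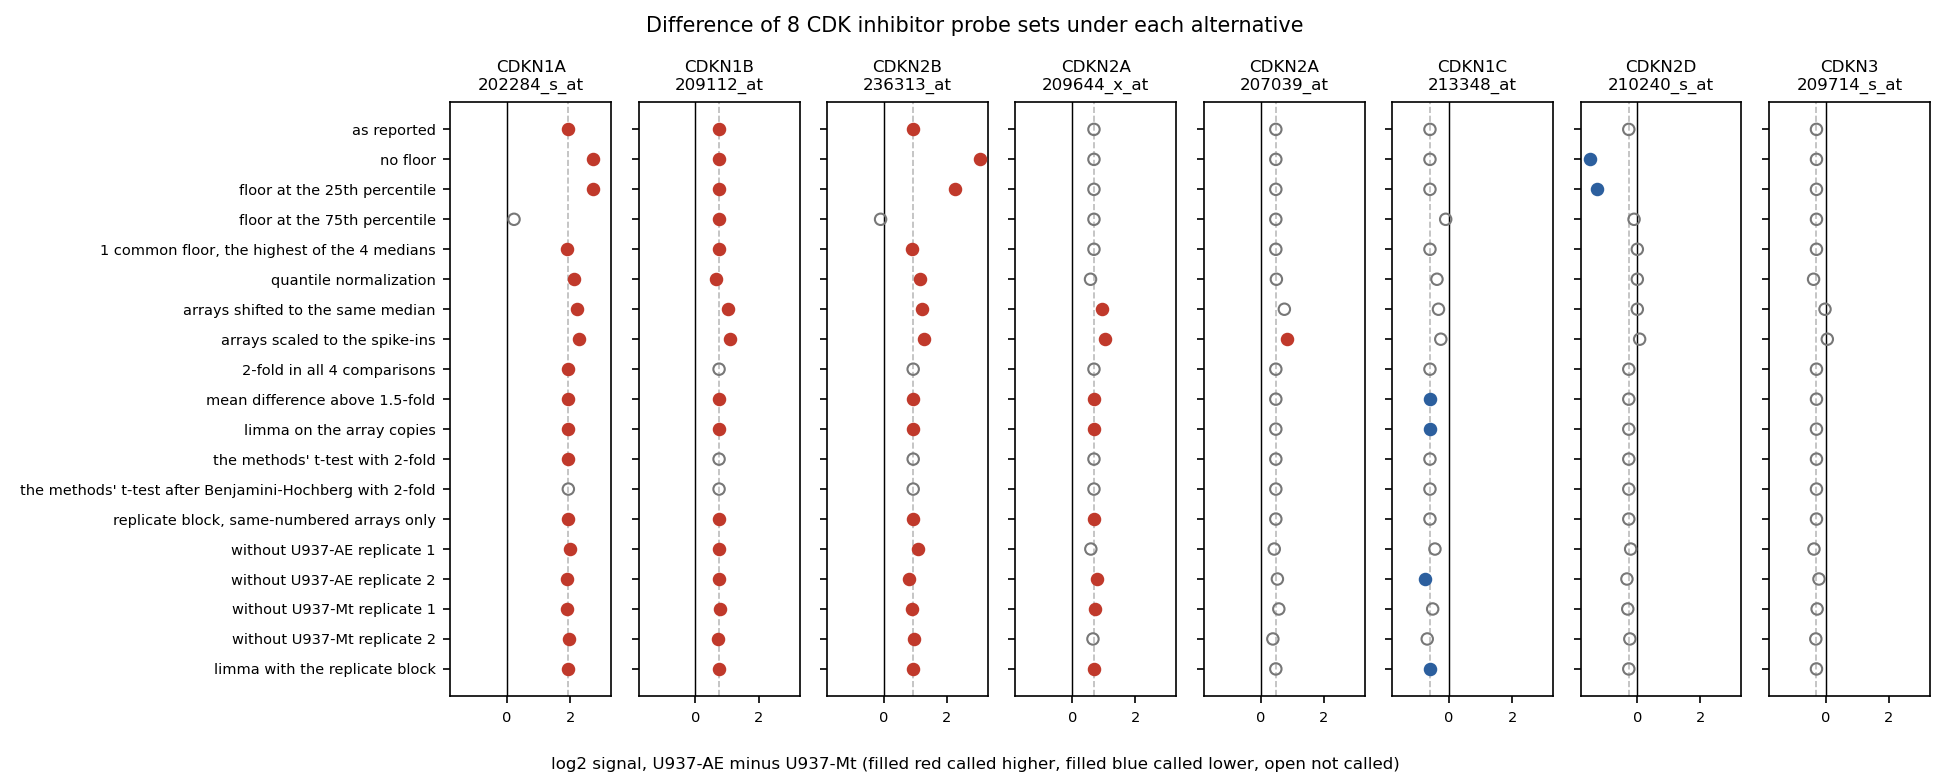
Difference in log2 signal (U937-AE minus U937-Mt) of 8 CDK inhibitor probe sets as reported (top) and under 18 alternative settings, with filled red points called higher, filled blue points called lower and open points not called; the dashed line repeats the reported value. CDKN1B stays between 0.65 and 1.09, CDKN1A between 0.22 and 2.73 and CDKN2B between -0.10 and 3.06. For both CDKN1A and CDKN2B the lowest came with the floor at the 75th percentile and the highest with no floor. The -0.10 of CDKN2B is only the difference of the floors.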

How the data were processed

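RNA pools of U937-AE and U937-Mt cells were read on 4 HG-U133 Plus 2.0 arrays. The intensity of every probe set was deposited by the authors as 1 linear value per array, computed and scaled with GCOS, with no version given in the sources used here. The number of arrays limits the precision. The paper names RNeasy columns for extraction, whereas the labels name TRIzol first.

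Of 54675 probe sets, 62 are controls. An annotation table gave 41097 probe sets 1 gene symbol, updated for 41043 of them, 1801 several symbols and 11777 none. No genome sequence was read; promoter windows and neighbors came from RefSeq tables of GRCh38.p14. Signals under the 50th percentile of their array were set to it, then put on the log2 scale. A gene took its brightest probe set. The call rule was run on the whole table and tested on simulated data. Members, 13 gene lists and rules were chosen with earlier results of these data known. Named were all member probe sets, called list genes, list genes needed for a sentence on a member and neighbors on the chromosome; other called probe sets of list genes were named after their values were seen. The 3 genes nearest in pattern are not reported, since levels of different probes cannot be compared.

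Alternatives were other floors, scalings and thresholds, limma with an adjusted p under 0.05, the methods' t-test with 2-fold, and leaving out each array. The software was limma 3.58.1 in R 4.3.3, and Python 3.11.15 with pandas 2.3.3, numpy 2.4.6, matplotlib 3.10.9 and scipy 1.17.1.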

Additional observations from a re-analysis of the deposited data

How the results depend on the processing

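Of 288 values of single members under alternatives, 226 kept their sign and their side of the threshold, and 38 stayed without a call but had the other sign. These counts include the 7 of 16 probe sets below the floor on all arrays, whose values are set by the floors under most alternatives. The counts are thus no measure of how firm the calls are. CDKN2B 236313_at was not called with the floor at the 75th percentile. Its -0.10 on the log2 scale there is the difference of the floors and no measured reversal. In place of 3 probe sets, 1 was called higher at that floor, 1 at 2-fold in all comparisons, 1 by the methods' t-test with 2-fold and 0 after Benjamini-Hochberg adjustment of it, whereas 5 were higher with arrays scaled to the spike-ins. In place of 0, 1 was called lower without any floor or with it at the 25th percentile (CDKN2D 210240_s_at) and 1 with a mean difference above 1.5-fold, with limma, or with limma and the replicate block (CDKN1C 213348_at). Leaving out 1 array gave 3 to 4 called higher and 0 to 1 lower, the 1 without the second U937-AE array. In place of 13 list genes, 20 were called with arrays shifted to the same median, 25 with spike-in scaling, 6 at 2-fold, and 5 by the methods' t-test, 0 after adjustment.

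Over all probe sets, 707 higher and 1496 lower calls became 1744 and 4809 without any floor, 1172 and 3216 and then 415 and 552 for floors at the 25th and the 75th percentile, 2023 and 667 with arrays shifted to the same median, 2850 and 508 with spike-in scaling, 191 and 447 at 2-fold, 1193 and 2494 with limma, and 271 and 669 by the methods' t-test (0 and 0 after adjustment). Leaving out 1 array gave 1057 to 1315 higher and 2256 to 3378 lower (1057 and 2256 with U937-AE array 1 dropped, 1272 and 2874 with U937-AE array 2, 1189 and 3378 with U937-Mt array 1, 1315 and 2915 with U937-Mt array 2). Same-numbered arrays shared little deviation from their pool means (r = 0.029 over 28882 probe sets). With 1 difference between copies per line, this cannot tell whether arrays were processed in pairs. With the replicate block, comparing same-numbered arrays only, 4 members were called higher. Signals below the floor limit what can be said of CDKN1C, CDKN2D and the U937-Mt levels of CDKN1A and CDKN2B.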
